A study of Mus musculus with 12 samples.

Results

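Matrix metalloproteinases (MMPs), ADAMTS proteases and the tissue inhibitors of metalloproteinases (TIMPs) were followed here by gene symbol. The rule took every symbol made of Mmp, Adamts or Timp and a number (with a or b for Mmp1), which gave 46 of the 45859 genes listed: 23 Mmp, 19 Adamts and 4 Timp genes. RNA was measured in lens cells (LCs) left on the lens capsule of mice, in a model of cataract surgery in which the fiber cells are removed. Each of 4 conditions had 3 libraries, each made from several pooled capsules, which gave 12 libraries. The question was how LCs respond after surgery with and without β8 integrin.

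The WT mice were C57BL/6 with an intact Itgb8 gene. The β8ITG-cKO mice carried a floxed Itgb8 allele and the MLR10-Cre transgene. That transgene expresses Cre in the lens only. Their background is labelled Mixed (C57BL/6, 129S1/Sv ). All animals were adults of 2 months, and both genotypes had the same surgery, with tissue taken at 0 h or at 24 h post cataract surgery (PCS). Genotype and strain background cannot be told apart in this design. Itgb8 itself had 7.26, 10.8 and 8.42 FPKM (fragments counted per length of transcript and per total of fragments) in WT 0 h, 9.08, 8.38 and 9.58 in WT 24 h, 6.83, 4.58 and 7.31 in β8ITG-cKO 0 h and 9.28, 11.8 and 10.3 in β8ITG-cKO 24 h. The gene-level value was not lower in β8ITG-cKO at 24 h. Only a floxed stretch of the gene is removed, so a value over the whole gene does not check the labels, and values of single exons were not used here.

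MMPs are secreted or membrane-bound zinc proteases that are made as inactive proenzymes and, once activated, cut collagens, laminins, proteoglycans and growth factor complexes. ADAMTS proteases are secreted relatives with thrombospondin repeats. Some cut proteoglycans such as versican, others trim the amino-terminal propeptide of fibrillar procollagens, and others act on microfibrils. TIMPs bind the active site of these proteases, and TIMP-3 is known as the strongest of them against ADAMTS enzymes. In the lens, these proteins act on the capsule and on the matrix that LCs lay down after injury.

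The libraries carried the lens markers that the tissue label calls for. Summed FPKM of 10 lens fiber markers lay between 28430 and 41950 at 0 h and between 6751 and 14590 at 24 h. The 8 lens epithelium markers summed to 13640 to 43200 at 0 h and to 11640 to 21660 at 24 h. WT 0 h replicate 2 had the lowest epithelial sum at 0 h. Cryaa was listed at 0 there, and it was the most abundant gene of that list over the 12 libraries. An FPKM of 0 can therefore be a failed estimate, and values of 0 are given below as listed.

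Some libraries also held RNA of other cells, in amounts that differed between groups. The 11 photoreceptor markers, led by Sag, summed to 836, 744 and 882 FPKM in β8ITG-cKO 24 h and to 66.2, 124 and 130.1 FPKM in WT 24 h. At 0 h they summed to 295, 932 and 120.2 FPKM in WT and to 264, 149.5 and 211 FPKM in β8ITG-cKO, so WT 0 h replicate 2 had the highest sum, followed by the 3 β8ITG-cKO 24 h libraries. All 11 photoreceptor markers were past the test between the genotypes at 24 h, in the direction of β8ITG-cKO, beside 6.29% of all genes tested. Of 10 retinal interneuron, ganglion cell and glial markers, 9 were tested there and 5 were past it, also higher in β8ITG-cKO. Of these 5, 2 (Grm6 and Gad1) averaged under 0.5 FPKM in WT 24 h and were let in by their β8ITG-cKO values.

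Sums of blood and immune cell markers were as follows. The 11 neutrophil markers, led by S100a9, summed to 0.51 to 0.79 FPKM in WT 0 h, 45.6 to 64.7 in WT 24 h, 0.46 to 1.55 in β8ITG-cKO 0 h and 12.3 to 35.0 in β8ITG-cKO 24 h, while Ly6g, Mpo and Elane were listed at 0 in all 12 libraries. The 10 macrophage markers, led by Lyz2, summed to 12.5 to 23.2 FPKM in WT 0 h, 44.7 to 62.1 in WT 24 h, 11.1 to 17.4 in β8ITG-cKO 0 h and 40.7 to 66.0 in β8ITG-cKO 24 h. The 5 red blood cell markers, led by Hba-a1, summed to 68.0 to 153 FPKM in WT 0 h, 36.0 to 220 in WT 24 h, 6.52 to 15.8 in β8ITG-cKO 0 h and 87.4 to 195 in β8ITG-cKO 24 h. Over time 0 of these 5 passed in WT and 5 rose in β8ITG-cKO, beside 20.9% and 35.4% of all genes tested that rose. Of the 5 that rose, 1 was let in by its 24 h values alone. At 0 h all 5 were lower in β8ITG-cKO than in WT, beside 2.75% of all genes tested, with 1 let in by WT alone.

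The other marker lists were as follows. The 6 corneal epithelium markers summed to 141 to 448 FPKM in all libraries but the β8ITG-cKO 0 h ones, where they summed to 921, 539 and 762 FPKM, of which Aldh3a1 alone made 911, 535 and 756 FPKM. The other 5 summed to 3.86 to 9.53 FPKM in β8ITG-cKO 0 h and to 4.94 to 7.28 FPKM in WT 0 h, so the difference is that of 1 gene. The 8 pigment cell markers, led by Dct, summed to 15.2 to 100.4 FPKM, with the highest sum in WT 0 h replicate 1. The 8 stromal and fibroblast markers summed to 454 to 1025 FPKM. Ptgds alone had 424 to 980 FPKM, so that sum is mostly that of 1 gene, and Kera and Lum stayed at or below 0.30 FPKM. The 6 vascular endothelium markers, led by Kdr, summed to 0.88 to 7.74 FPKM. Xist, expressed from the inactive X chromosome of females, also differed between the pools, with 0.04, 19.9 and 60.6 FPKM in WT 0 h, 48.0, 3.43 and 0.49 in WT 24 h, 45.2, 44.2 and 45.9 in β8ITG-cKO 0 h and 49.3, 0.76 and 36.7 in β8ITG-cKO 24 h.

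As a whole, the 3 families had different sums at 0 h and 24 h PCS. The summed FPKM of the 4 TIMP genes went from 173 ± 20.1 (SD, n = 3) to 267 ± 23.9 in WT and from 172 ± 6.91 to 207 ± 29.4 in β8ITG-cKO. MMP genes summed to 13.9 ± 0.961 and 12.8 ± 1.22 FPKM at 0 h in WT and β8ITG-cKO and to 43.0 ± 4.36 and 32.9 ± 5.65 FPKM at 24 h. The ADAMTS sum went the other way, from 102 ± 20.9 to 57.8 ± 6.19 FPKM in WT and from 98.1 ± 14.2 to 65.7 ± 4.11 FPKM in β8ITG-cKO. This fall was not shared by all ADAMTS genes. By group means from 0 h to 24 h, Adamts18 went from 40.1 to 14.4 FPKM in WT and from 55.2 to 14.9 in β8ITG-cKO. Adamts1 went from 26.0 to 13.0 FPKM in WT and from 1.77 to 16.4 in β8ITG-cKO. For each family the 0 h and 24 h sums of a genotype did not overlap. With libraries rescaled to a common median this held for all but the TIMP sums of β8ITG-cKO, which were then 186, 186 and 194 at 0 h and 190.0, 161 and 201 at 24 h. The ratio of the TIMP sum to the MMP sum was 12.4 ± 0.608 in WT 0 h, 13.6 ± 1.6 in β8ITG-cKO 0 h, 6.28 ± 1.09 in WT 24 h and 6.37 ± 1.05 in β8ITG-cKO 24 h. These sums were not tested, and FPKM are scaled to transcript length, so they can be added over genes.

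**Figure D1:**
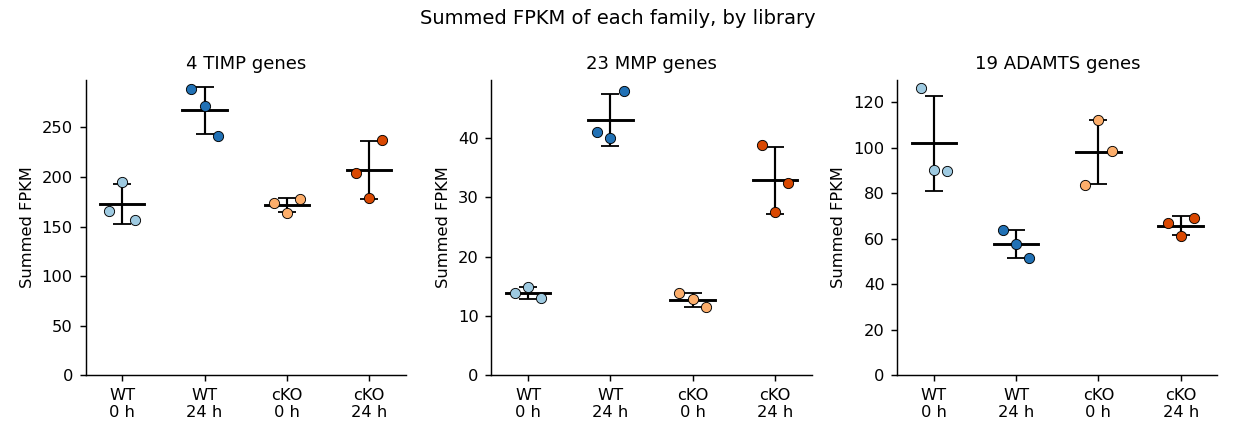
Summed FPKM (vertical axes, linear) of the TIMP, MMP and ADAMTS genes in each of the 12 libraries, by group (cKO, β8ITG-cKO). Points are libraries, and bars are the mean ± SD of 3. The TIMP and MMP sums are higher at 24 h than at 0 h in both genotypes. The ADAMTS sums are lower, with Adamts18 the largest by group mean at 0 h, and not every ADAMTS gene falls. With rescaled libraries the TIMP sums of β8ITG-cKO overlap.

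In WT, 13 of the 46 genes passed the test from 0 h to 24 h PCS, 9 higher and 4 lower. A gene passed when its adjusted p was at most 0.05 in limma on log2(FPKM + 1), and 29.7% of all genes tested did so, 20.9% higher and 8.81% lower. In β8ITG-cKO 16 genes passed, 10 higher and 6 lower, beside 46.1% of all genes tested, 35.4% higher and 10.7% lower. Genes whose average over the 6 libraries was under 0.5 FPKM were not tested, which left 26 and 24 of the 46, and 6 and 5 of these reached 0.5 FPKM in 1 group only, so shares of the tested genes are not given as a result. Of the genes that passed, these were Mmp9, Mmp3, Mmp12, Adamts14 and Adamts7 in WT and Mmp9, Mmp3 and Adamts14 in β8ITG-cKO, let in by 24 h, and Adamts17 in β8ITG-cKO, let in by 0 h. Among the tested genes of the families, the groups did not overlap for 17 in WT and 18 in β8ITG-cKO, beside 46.9% and 56.9% of all genes tested. When the group means also had to be more than 2-fold and 2 FPKM apart, with the higher one at 2 FPKM or above, 9 genes passed in WT and 10 in β8ITG-cKO, beside 14.3% and 15.1% of all genes tested.

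The whole transcriptome also shifted between the times. The median log2 difference over all genes tested was 0.16 in WT and 0.23 in β8ITG-cKO, against -0.04 and 0.04 over the genes of the 3 families that were tested. After the libraries were rescaled to a common median, the passing genes were 9 higher and 7 lower in WT and 8 higher and 7 lower in β8ITG-cKO, while the share of higher genes among all passing genes went from 70.3% to 47.3% in WT and from 76.7% to 51.7% in β8ITG-cKO. In these RNA pools, fewer cells of a type and less RNA per cell cannot be told apart.

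**Figure D2:**
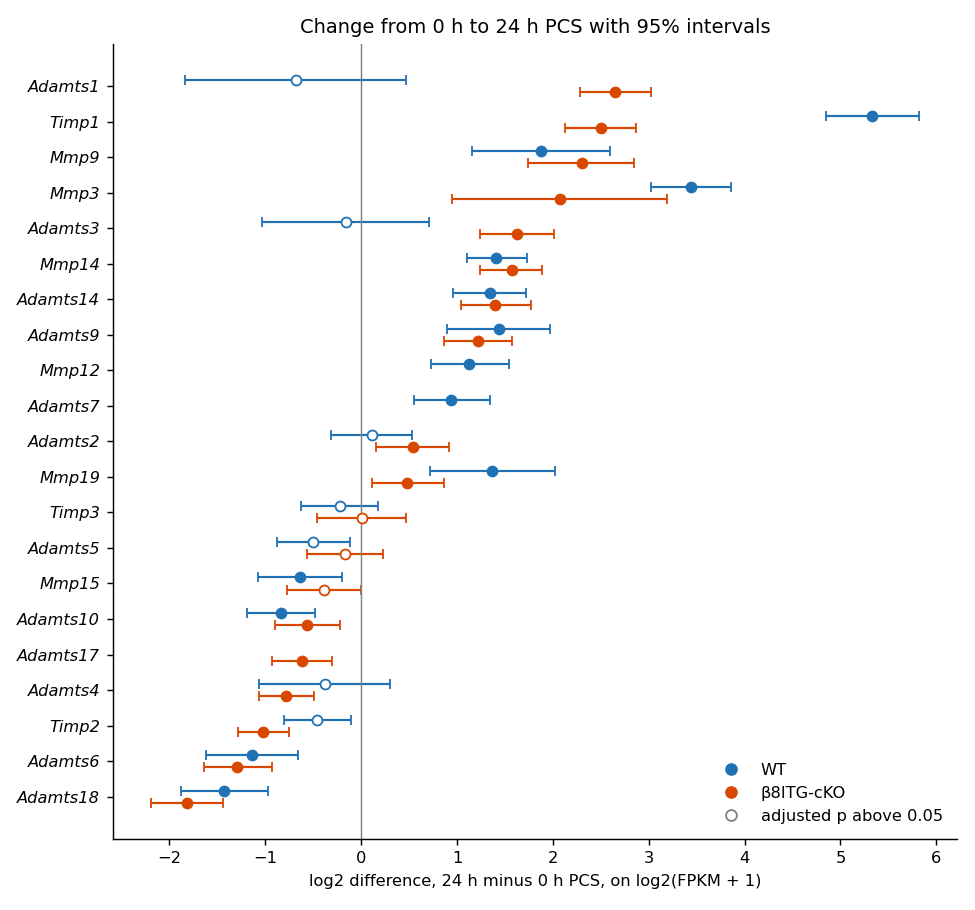
Change from 0 h to 24 h PCS (horizontal axis, log2 difference on log2(FPKM + 1)) of the 21 genes that had a group mean of at least 5 FPKM or passed a test, in WT and β8ITG-cKO. Points are fitted differences, lines are 95% intervals, and open points have an adjusted p above 0.05. Timp1 and Mmp3 rose most in WT, Adamts1 and Timp1 in β8ITG-cKO, and Adamts18 is lowest in both.

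Among the inhibitors, Timp1 rose from the least abundant of the 3 expressed TIMP genes to the most abundant. Timp1, an inducible secreted inhibitor, lies on chromosome X (chrX:20870166-20874737, GRCm38.p6). It had 1.64, 2.55 and 2.58 FPKM in WT 0 h and 161, 132 and 101 FPKM in WT 24 h. In β8ITG-cKO it had 18.4, 12.8 and 17.4 FPKM at 0 h and 105, 81.2 and 101 FPKM at 24 h. All 6 libraries of 24 h lay above all 6 of 0 h, and at 0 h every β8ITG-cKO library lay above every WT library. The log2 difference was 5.33 ± 0.21 (SE) in WT (adjusted p = 4.59e-05, 58.2-fold by group means) and 2.5 ± 0.16 in β8ITG-cKO (adjusted p = 3.08e-05, 5.92-fold).

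Timp1 made up 0.99% to 1.65% of the summed TIMP FPKM in WT 0 h, 7.77% to 10.6% in β8ITG-cKO 0 h, 41.7% to 55.8% in WT 24 h and 42.7% to 51.6% in β8ITG-cKO 24 h. It was higher in β8ITG-cKO than in WT already at 0 h, by 2.40 ± 0.18 on the log2 scale (adjusted p = 0.000905, 7.18-fold), beside 6.94% of all genes tested that passed in that comparison. At 24 h the difference between the genotypes was -0.43 ± 0.20 (95% interval -0.91 to 0.04, adjusted p = 0.291). Its change over time differed between the genotypes by -2.83 ± 0.28 (adjusted p = 0.00143), and this and the 0 h difference remained past the test with each library left out.

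Xist and an overlapping gene are given beside Timp1, which is X-linked. In WT 0 h replicate 3, the library with the highest Xist of all 12, Timp1 was 2.58 FPKM, against 12.8 FPKM or more in the β8ITG-cKO 0 h libraries. The part of the mix of sexes in the pools was not tested. Syn1, in whose interval Timp1 lies, had 0.49 to 5.79 FPKM over the 12 libraries and 0.95 to 1.17 FPKM in WT 24 h, where Timp1 was highest.

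Timp2, which inhibits MMPs and also takes part in the activation of proMMP-2, had 75.1, 80.2 and 70.7 FPKM in WT 0 h and 57.7, 47.0 and 59.8 FPKM in WT 24 h. It had 82.4, 95.4 and 94.3 FPKM in β8ITG-cKO 0 h and 38.8, 46.4 and 47.7 FPKM in β8ITG-cKO 24 h. In both genotypes every 24 h library was below every 0 h library. It fell in β8ITG-cKO by 1.02 ± 0.11 on the log2 scale (adjusted p = 0.000333). The difference in WT was -0.46 ± 0.15 (adjusted p = 0.0517), which passed with rescaled libraries (-0.72, adjusted p = 0.0130), in 1 fit over all 12 libraries (adjusted p = 0.0134) and without WT 24 h replicate 3 (0.0391). The test of the difference between these changes gave -0.56 ± 0.18 (adjusted p = 0.0749), which passed without WT 24 h replicate 2 (0.0375).

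Timp3, which is bound to the matrix, had 89.2, 112 and 83.0 FPKM in WT 0 h, 70.0, 91.7 and 81.0 in WT 24 h, 72.8, 56.0 and 65.7 in β8ITG-cKO 0 h and 59.9, 51.3 and 88.4 in β8ITG-cKO 24 h. Neither genotype had a difference over time past the test, with -0.22 ± 0.18 (adjusted p = 0.363) in WT and 0.01 ± 0.20 (adjusted p = 0.978) in β8ITG-cKO. With rescaled libraries the WT difference was -0.49 (adjusted p = 0.0315). At 0 h the β8ITG-cKO libraries were all below the WT ones, with a difference of -0.54 ± 0.15 (adjusted p = 0.0746) that passed, among the alternatives run, only when libraries were rescaled (-0.57, adjusted p = 0.0236). Syn3, which overlaps Timp3, had 1.45 to 1.62 FPKM in β8ITG-cKO 0 h and 2.57 to 3.19 FPKM in WT 0 h (-0.61 ± 0.13, adjusted p = 0.0342). Whether counting used strand is not known, so its part in the Timp3 value was not tested. Timp4 stayed at or below 0.35 FPKM in all 12 libraries and was not tested.

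**Figure D3:**
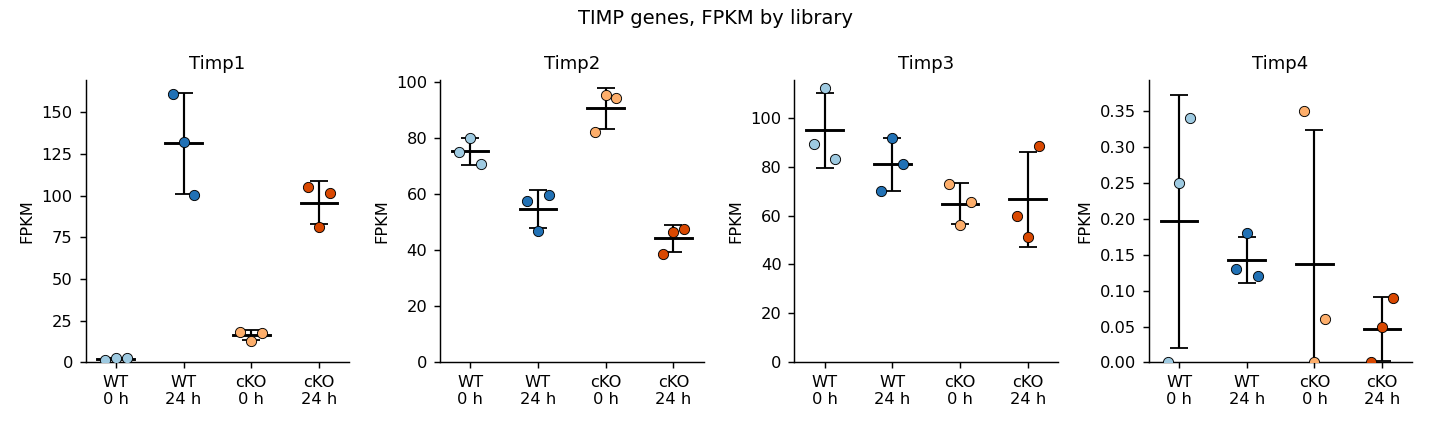
FPKM (vertical axes, linear, on a separate scale for each gene) of Timp1 to Timp4 in each library. Points are libraries, and bars are the mean ± SD of 3. Timp1 moves from 1.64 to 2.58 FPKM in WT 0 h to 101 to 161 FPKM in WT 24 h, with the β8ITG-cKO 0 h libraries between.

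A cluster of 10 MMP genes lies together on chromosome 9 (chr9:7272514-7699585, GRCm38.p6) and holds genes of collagenases, stromelysins, matrilysin and macrophage elastase. These genes were at or near 0 FPKM at 0 h, where the precision is not known, and part of them had higher values at 24 h. Their summed FPKM were 0.132, 0.0383 and 0.0668 in WT 0 h, 10.45, 15.0 and 18.0 in WT 24 h, 0.0788, 0.297 and 0.116 in β8ITG-cKO 0 h and 11.3, 4.86 and 2.08 in β8ITG-cKO 24 h. Each 24 h sum was above each 0 h sum, and β8ITG-cKO 24 h replicate 1 lay within the range of WT 24 h while the other two lay below it. Mmp1a, Mmp1b and Mmp27 were listed at 0 in all 12 libraries. Mmp1a and Mmp1b are close copies of each other, so reads that fit both could have been lost to either.

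Mmp3, stromelysin-1, which cuts proteoglycans and laminin and activates other MMPs, was the most abundant of the cluster genes at 24 h in both genotypes by group means. It was listed at 0 in all 6 libraries of 0 h. At 24 h it had 7.79, 11 and 11.1 FPKM in WT and 8.33, 3.07 and 0.96 FPKM in β8ITG-cKO. The WT libraries were close together, and those of β8ITG-cKO spread over a wide range that reached into the WT range at replicate 1. It rose in WT by 3.44 ± 0.18 (adjusted p = 6.55e-05) and in β8ITG-cKO by 2.07 ± 0.48 (adjusted p = 0.0099) on the log2(FPKM + 1) scale, and no fold is given against a group at 0.

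The 24 h difference of Mmp3 between the genotypes, -1.37 ± 0.50 (95% interval -2.54 to -0.19), had an adjusted p of 0.180. Without β8ITG-cKO 24 h replicate 1 it was -1.94 (adjusted p = 0.0337), and the difference of the changes over time, adjusted p = 0.164 with all libraries, then had an adjusted p of 0.0180. Both calls thus rest on whether that library is kept.

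The other cluster genes were low. Mmp12, macrophage elastase, had 0, 0.04 and 0.04 FPKM in WT 0 h, between 1.11 and 1.55 in WT 24 h, 0.05, 0.10 and 0 in β8ITG-cKO 0 h and 1.42, 0.78 and 0.22 in β8ITG-cKO 24 h. It rose in WT by 1.13 ± 0.18 (adjusted p = 0.00354), where it reached 0.5 FPKM at 24 h only. In β8ITG-cKO its mean was under 0.5 FPKM, and its difference of 0.73 there passed in 1 fit over all 12 libraries (adjusted p = 0.0188) and did not with no filter on low values (0.0847). Of the 10 macrophage markers 9 were tested over time in each genotype. Of these, 3 rose in WT and 5 in β8ITG-cKO, beside 20.9% and 35.4% of all genes tested. In each genotype 2 of those that rose were let in by their 24 h values alone. Cd68, one of these in WT, went from 0.43 to 0.55 FPKM in WT 0 h to 6.36 to 9.03 FPKM in WT 24 h, and Adgre1 was at 0.72 FPKM or below throughout. The part of macrophages in the Mmp12 result was not tested.

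Mmp13, the main collagenase of rodents, was at or below 0.08 FPKM in the 6 libraries of 0 h and at 0.18 to 0.93 FPKM in those of 24 h. It was too low to be tested, and with no filter on low values it passed in WT (0.71, adjusted p = 0.0152) and in β8ITG-cKO (0.33, adjusted p = 0.0248). Mmp10 (stromelysin-2), Mmp7 (matrilysin) and Mmp8 (neutrophil collagenase) each had a single WT 24 h library well above the rest. These were replicate 2 with 1.67 FPKM of Mmp10, and replicate 3 with 3.42 FPKM of Mmp7 and 1.18 FPKM of Mmp8. Krt15, a basal epithelial keratin on the corneal list, was 46.4 FPKM in that replicate 3 and 9.07 FPKM or less in the others; its part in the Mmp7 value was not tested. Mmp20, the enamel protease, was above 0 in 1 library, at 0.03 FPKM.

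**Figure D4:**
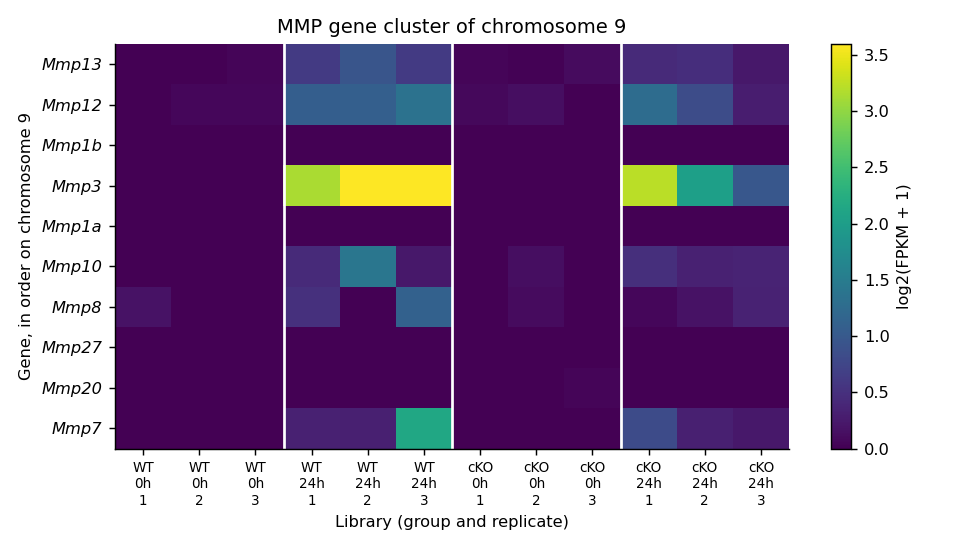
Heat map of log2(FPKM + 1) (colour scale) for the 10 MMP genes of the chromosome 9 cluster, in their order along the chromosome (rows), in the 12 libraries (columns, cKO is β8ITG-cKO). Mmp3 is bright in all 3 WT 24 h libraries and, among the β8ITG-cKO 24 h libraries, brightest in replicate 1, while Mmp1b, Mmp1a and Mmp27 are at 0 throughout.

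Most of the cluster genes hold the same short sequence before a start. The bases upstream of the RefSeq start sites (GRCm38.p6) were searched for the AP-1 site TGANTCA, which binds Fos and Jun dimers and is a textbook element of the collagenase and stromelysin promoters. A promoter was found for 32 of the 46 genes, and 8 of the 10 cluster genes had the motif within 250 bases of a start, on either strand, against 0 of the 22 others and 7.82% of all 27025 genes searched. By start, 8 of the 12 starts of the cluster genes had it, against 0 of 23 for the others and 6.75% of all 32851 starts. The motif and these genes were chosen after the values were seen. The last 100 bases before the start are shown for the cluster genes above 0 at 24 h and for Mmp1a and Mmp1b, which carry the motif but were listed at 0. They are written 5′ to 3′ along the gene's strand (minus for Mmp1b, plus for the rest), with the motif in capitals.
Mmp13, chr9:7272414-7272513: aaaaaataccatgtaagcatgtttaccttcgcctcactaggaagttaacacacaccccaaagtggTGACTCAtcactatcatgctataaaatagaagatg
Mmp12, first start, chr9:7344297-7344396: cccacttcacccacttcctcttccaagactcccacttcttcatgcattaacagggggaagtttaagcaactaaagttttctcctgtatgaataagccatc
Mmp12, second start, chr9:7347274-7347373: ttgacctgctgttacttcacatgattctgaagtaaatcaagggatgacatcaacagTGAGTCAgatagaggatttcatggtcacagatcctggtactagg
Mmp3, chr9:7445722-7445821: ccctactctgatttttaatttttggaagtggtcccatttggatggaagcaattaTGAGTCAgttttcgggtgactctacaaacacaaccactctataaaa
Mmp10, chr9:7502242-7502341: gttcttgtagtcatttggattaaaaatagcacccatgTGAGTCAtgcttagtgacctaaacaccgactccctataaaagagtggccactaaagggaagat
Mmp8, chr9:7558329-7558428: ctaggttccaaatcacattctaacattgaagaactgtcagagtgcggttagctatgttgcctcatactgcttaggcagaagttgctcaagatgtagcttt
Mmp7, first start, chr9:7691990-7692089: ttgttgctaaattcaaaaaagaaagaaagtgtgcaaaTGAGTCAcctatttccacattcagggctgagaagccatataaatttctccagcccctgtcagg
Mmp7, second start, chr9:7692241-7692340: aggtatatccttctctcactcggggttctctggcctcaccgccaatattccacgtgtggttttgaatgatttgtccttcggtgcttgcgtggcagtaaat
Mmp1b, chr9:7388027-7388126: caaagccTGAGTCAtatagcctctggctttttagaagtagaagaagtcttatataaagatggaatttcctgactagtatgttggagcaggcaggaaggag
Mmp1a, chr9:7464041-7464140: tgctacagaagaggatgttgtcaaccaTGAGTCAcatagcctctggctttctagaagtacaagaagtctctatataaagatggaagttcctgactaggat

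A match is a string of letters and was not measured as a bound site. The motif was present in Mmp1a and Mmp1b, at 0 in all libraries, and absent from these windows of Mmp8 and Mmp27 and from 1 of the 2 starts of Mmp12 and of Mmp7. Mmp20 also carried it and was at 0 in 11 libraries. A TATA box written TATAAA was found within 250 bases of the start of 7 of the 10 cluster genes and of 2 of the 22 others, Adamts1 and Mmp21, against 8.94% of all genes searched, on the strand of the gene.

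Outside the cluster, Timp1, Mmp9, Adamts9 and Mmp14 had the largest rises in WT on the log2(FPKM + 1) scale. By the ratio of group means Mmp19 (5.46-fold) was above Adamts9 and Mmp14, and Adamts14 and Adamts7, near 0 FPKM at 0 h, have no ratio of known precision. Timp1, Adamts9 and Mmp14 held neither motif in the 250 bases before the start. Mmp9 had no entry in the table. Their last 100 bases are shown in the same way (plus strand for Timp1 and Mmp14, minus for Adamts9).
Timp1, chrX:20870066-20870165: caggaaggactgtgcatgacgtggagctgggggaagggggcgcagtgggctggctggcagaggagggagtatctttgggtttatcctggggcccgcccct
Adamts9, chr6:92943535-92943634: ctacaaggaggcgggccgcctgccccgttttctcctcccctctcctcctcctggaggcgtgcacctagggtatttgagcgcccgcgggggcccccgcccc
Mmp14, chr14:54431498-54431597: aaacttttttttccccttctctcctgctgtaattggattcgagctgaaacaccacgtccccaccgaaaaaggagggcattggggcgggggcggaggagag

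Of the gelatinases, which cut denatured collagen and collagen IV of basement membranes, Mmp9 rose, and Mmp2 passed in none of the 5 comparisons with all libraries kept. Mmp9 (chr2:164940326-164955850) had 0.55, 0.29 and 0 FPKM in WT 0 h, 6.34, 2.60 and 2.80 in WT 24 h, 0.33, 0.09 and 0.16 in β8ITG-cKO 0 h and 6.26, 2.95 and 5.98 in β8ITG-cKO 24 h. The times did not overlap in either genotype, and the 24 h ranges of the genotypes did. It rose by 1.88 ± 0.31 in WT (adjusted p = 0.00446, 13.8-fold) and by 2.30 ± 0.24 in β8ITG-cKO (adjusted p = 0.00024, 26.1-fold). These folds rest on values near 0 at 0 h, and with 1 library left out they were 9.21 to 26.5 (without WT 0 h replicate 1) in WT and 20.7 to 39.6 (without β8ITG-cKO 0 h replicate 1) in β8ITG-cKO.

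Neutrophils are a known source of Mmp9, and some of their 11 markers were also higher at 24 h. Ly6g, Mpo and Elane were listed at 0 in all 12 libraries, and Ngp, Camp and Ltf stayed at or below 0.48 FPKM. Retnlg had 0, 0 and 0.92 FPKM in β8ITG-cKO 24 h. The markers that were tested over time in WT were under 0.5 FPKM on average at 0 h and were let in by their 24 h values, so no count of them is given. Csf3r had 0.13 to 0.18 FPKM in WT 0 h and 8.12 to 11 FPKM in WT 24 h, and 0.07 to 0.45 and 3.51 to 9.15 FPKM in β8ITG-cKO. At 24 h S100a9 was 19.3 to 30.7 FPKM in WT and 5.31 to 15.9 FPKM in β8ITG-cKO. The 24 h difference of Mmp9 between the genotypes was 0.33 ± 0.34 (adjusted p = 0.64). The part of such cells in the Mmp9 rise was not tested. Mmp25, a membrane-type MMP of leukocytes, was listed at 0 in all 6 libraries of 0 h and had 0.52, 0.30 and 0.17 FPKM in WT 24 h and 0.60, 0.06 and 0.25 FPKM in β8ITG-cKO 24 h. Mmp2 lay between 1.19 and 3.33 FPKM in all 12 libraries, and its difference over time in β8ITG-cKO passed only without β8ITG-cKO 24 h replicate 2 (-0.57, adjusted p = 0.0417).

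Mmp14, or MT1-MMP, a membrane-type collagenase and activator of proMMP-2, was the most abundant MMP in every group. It lies at chr14:54431598-54442456. It had 4.68, 5.5 and 4.76 FPKM in WT 0 h and 15.8, 14.2 and 14.6 FPKM in WT 24 h, and 3.36, 3.52 and 3.20 FPKM in β8ITG-cKO 0 h and 11.6, 10 and 14.6 FPKM in β8ITG-cKO 24 h. The spread between replicates was small beside the change, and the times did not overlap. It rose by 1.41 ± 0.13 in WT (adjusted p = 0.000576, 2.99-fold) and by 1.57 ± 0.14 in β8ITG-cKO (adjusted p = 0.000118, 3.59-fold).

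At 0 h every β8ITG-cKO library had less Mmp14 than every WT library, with a difference of -0.45 ± 0.12 (adjusted p = 0.0609). It passed when libraries were rescaled (adjusted p = 0.0405) and with a filter of 2 FPKM (adjusted p = 0.0483).

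Mmp15, or MT2-MMP, went the other way, with 1.47, 1.98 and 1.17 FPKM in WT 0 h and 0.54, 0.52 and 0.79 FPKM in WT 24 h. In β8ITG-cKO it had 2.36, 1.76 and 1.96 FPKM at 0 h and 1.13, 1.04 and 1.82 FPKM at 24 h, where the times overlapped. It fell in WT by 0.64 ± 0.19 (adjusted p = 0.0382), but missed the threshold without WT 0 h replicate 1 (adjusted p = 0.107), WT 0 h replicate 2 (0.109), WT 24 h replicate 1 (0.0932) or WT 24 h replicate 2 (0.106). It also missed the threshold with no filter on low values (0.0859). The difference in β8ITG-cKO was -0.39 ± 0.16 (adjusted p = 0.0898), which passed with rescaled libraries (-0.57, adjusted p = 0.0174) and without β8ITG-cKO 24 h replicate 3 (0.0286). Mmp16, Mmp17 and Mmp24, the remaining membrane-type genes, were at or below 1.5 FPKM throughout.

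Mmp24, or MT5-MMP, known from neural tissue, had 0.97, 0.68 and 0.71 FPKM in β8ITG-cKO 24 h and at most 0.18 FPKM in the other libraries, except WT 0 h replicate 2 with 0.49 FPKM. The libraries with the highest Mmp24 were those with the highest photoreceptor markers, whose part was not tested. Its mean was under 0.5 FPKM in each of the 5 comparisons. With no filter on low values it passed between the genotypes at 24 h (0.63, adjusted p = 0.0331), over time in β8ITG-cKO (0.68, adjusted p = 0.00401) and in the interaction (0.75, adjusted p = 0.0452). Leaving out a WT 24 h library brought it over the filter at 24 h, and it then did not pass (adjusted p of 0.0796 to 0.130). Leaving out a β8ITG-cKO 0 h library brought it over the filter over time in β8ITG-cKO, and it then passed (adjusted p of 0.0144 to 0.0220).

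Mmp19, a secreted MMP of skin, vessels and immune cells, had 0.60, 0.84 and 0.40 FPKM in WT 0 h, 3.04, 1.89 and 5.09 in WT 24 h, 0.84, 1.08 and 0.55 in β8ITG-cKO 0 h and 1.79, 1.22 and 1.61 in β8ITG-cKO 24 h. All WT 24 h libraries lay above all β8ITG-cKO 24 h libraries. It rose in WT by 1.37 ± 0.28 (adjusted p = 0.00999) and in β8ITG-cKO by 0.48 ± 0.16 (adjusted p = 0.0413). The second call was lost when libraries were rescaled (adjusted p = 0.164), with no filter on low values (0.0950), in 1 fit over all 12 libraries (0.132), and without β8ITG-cKO 0 h replicate 1 (0.0804), β8ITG-cKO 0 h replicate 3 (0.131), β8ITG-cKO 24 h replicate 1 (0.118) or β8ITG-cKO 24 h replicate 3 (0.0946). The 24 h difference between the genotypes was -0.71 ± 0.27 (adjusted p = 0.194), and the interaction passed only without WT 24 h replicate 2 (-1.15, adjusted p = 0.0377). Mmp11 lay between 0.66 and 2.06 FPKM, and its WT difference passed in 1 fit over all 12 libraries (-0.50, adjusted p = 0.0299) and without WT 24 h replicate 3 (-0.67, adjusted p = 0.0276). Mmp28 lay between 0.37 and 0.82 FPKM. Mmp21 and Mmp23 were at or below 0.28 FPKM.

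The proteoglycan-cleaving ADAMTS genes differed in their patterns. Adamts1 (chr16:85793827-85803113), a versican- and aggrecan-cleaving enzyme, had 44.4, 25.1 and 8.41 FPKM in WT 0 h and 12.3, 15.2 and 11.6 FPKM in WT 24 h. In β8ITG-cKO it had 1.39, 2.28 and 1.64 FPKM at 0 h and 19.2, 15.5 and 14.4 FPKM at 24 h. The WT 0 h libraries were widely spread, and every β8ITG-cKO 0 h library was below the other 9. It rose in β8ITG-cKO by 2.65 ± 0.16 (adjusted p = 2.38e-05, 9.25-fold), whereas the WT difference was -0.68 ± 0.50 (95% interval -1.84 to 0.47, adjusted p = 0.328). Without WT 0 h replicate 3 the WT difference was -1.31 (adjusted p = 0.0191).

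At 0 h Adamts1 was lower in β8ITG-cKO than in WT by 3.02 ± 0.49 on the log2 scale (adjusted p = 0.0171, 14.7-fold). Without WT 0 h replicate 1 the fold was 9.46. The call was lost without β8ITG-cKO 0 h replicate 1 (adjusted p = 0.0534), 2 (0.0538) or 3 (0.0788) and with no filter on low values (0.0797), with the difference between -3.15 and -2.92 in these 4 fits. At 24 h the difference was 0.31 ± 0.16 (95% interval -0.07 to 0.69, adjusted p = 0.339). The changes over time differed by 3.33 ± 0.59 (adjusted p = 0.00815), which remained past the test with each library left out.

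Immediate early genes, which respond quickly to handling and injury, were also lower in β8ITG-cKO at 0 h. This list of 6 (Fos, Fosb, Jun, Junb, Egr1 and Atf3) was picked after the values were seen. Of the 6, 5 were lower past the test in β8ITG-cKO at 0 h and 6 rose over time in β8ITG-cKO. These counts stand beside 2.75% of all genes tested that were lower and 35.4% that rose. Atf3 in the first count, and Fosb and Atf3 in the second, averaged under 0.5 FPKM in β8ITG-cKO 0 h and were let in by the other group. All but Fosb had the same order of libraries within WT 0 h as Adamts1. Atf3 had 46.7, 28.6 and 8.99 FPKM in WT 0 h and 0.38, 0.12 and 0.17 FPKM in β8ITG-cKO 0 h, and Fos had 83.6, 29.6 and 14.0 FPKM and 1.08, 1.09 and 1.37 FPKM. At 24 h Atf3 had 3.58, 11.1 and 10.1 FPKM in WT and 11.5, 8.64 and 8.31 FPKM in β8ITG-cKO. Red blood cell markers, given above, were also lower in β8ITG-cKO at 0 h and rose over time there, 5 of 5 past the test each time. The part of these genes and markers in the Adamts1 difference was not tested. The last 100 bases before the Adamts1 start (minus strand) are shown with the TATA box in capitals, and no AP-1 letters were found in 250 bases.
Adamts1, chr16:85803114-85803213: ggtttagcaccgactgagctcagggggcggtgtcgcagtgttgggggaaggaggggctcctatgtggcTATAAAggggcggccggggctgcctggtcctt

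Adamts4, aggrecanase-1, had 21.9, 11.3 and 15.2 FPKM in WT 0 h, 17.4, 10.3 and 8.91 in WT 24 h, 18.6, 24.1 and 21.4 in β8ITG-cKO 0 h and 11.7, 11 and 13.3 in β8ITG-cKO 24 h. The times overlapped in WT and did not in β8ITG-cKO. It fell in β8ITG-cKO by 0.78 ± 0.12 (adjusted p = 0.00166), and the WT difference was -0.38 ± 0.29 (adjusted p = 0.354). The difference between these changes was not past the test (-0.40 ± 0.35, adjusted p = 0.532).

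Adamts5, aggrecanase-2, had 5.35, 5.51 and 4.47 FPKM in WT 0 h, 3.84, 3.36 and 2.78 in WT 24 h, 5.76, 5.98 and 5.87 in β8ITG-cKO 0 h and 5.54, 3.70 and 6.45 in β8ITG-cKO 24 h. The WT groups did not overlap, with a difference of -0.50 ± 0.16 (adjusted p = 0.0521) that passed when libraries were rescaled (-0.72, adjusted p = 0.00865), with a filter of 2 FPKM (0.0423) and in 1 fit over all 12 libraries (0.0311). The difference in β8ITG-cKO was -0.17 ± 0.17 (adjusted p = 0.456).

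Adamts9, a versican-cleaving enzyme of cell surface and matrix, had 1.16, 1.22 and 1.34 FPKM in WT 0 h, 3.81, 7.54 and 4.42 in WT 24 h, 0.68, 0.97 and 0.65 in β8ITG-cKO 0 h and 3.85, 2.81 and 2.72 in β8ITG-cKO 24 h. Every 24 h library was above every 0 h library. It rose by 1.44 ± 0.23 in WT (adjusted p = 0.00398, 4.23-fold) and by 1.22 ± 0.15 in β8ITG-cKO (adjusted p = 0.000589, 4.07-fold). Adamts8, Adamts15 and Adamts20, of the same group, were at or below 0.72 FPKM.

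The procollagen N-proteinases, which remove the amino-terminal propeptide so that fibrillar collagen can assemble, were low at 0 h. Adamts14 had 0, 0.03 and 0.04 FPKM in WT 0 h and was listed at 0 in all 3 β8ITG-cKO 0 h libraries. At 24 h it had 1.76, 1.48 and 1.54 FPKM in WT and 2.21, 1.38 and 1.44 FPKM in β8ITG-cKO. It rose by 1.34 ± 0.16 (adjusted p = 0.00148) and 1.40 ± 0.16 (adjusted p = 0.000337), and the genotypes overlapped at 24 h.

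Adamts3 (chr5:89673841-89883668), which also activates VEGF-C, had 1.28, 2.18 and 0.66 FPKM in WT 0 h, 0.23, 2.15 and 1.22 in WT 24 h, 0.87, 0.35 and 0.82 in β8ITG-cKO 0 h and 3.78, 4.80 and 3.89 in β8ITG-cKO 24 h. The β8ITG-cKO 24 h libraries stood above the other 9. It rose in β8ITG-cKO by 1.63 ± 0.17 (adjusted p = 0.000218, 6.12-fold), and in WT the difference was -0.16 ± 0.38 (adjusted p = 0.774). The changes differed by 1.79 ± 0.45 (adjusted p = 0.0299).

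That call of Adamts3 was lost without WT 0 h replicate 1 (adjusted p = 0.0596), WT 0 h replicate 2 (0.0643), β8ITG-cKO 0 h replicate 2 (0.0767), β8ITG-cKO 0 h replicate 3 (0.0580), β8ITG-cKO 24 h replicate 1 (0.0546), β8ITG-cKO 24 h replicate 2 (0.0695) or β8ITG-cKO 24 h replicate 3 (0.0554). It was also lost with a pseudocount of 0.1 (0.0566) and with no filter on low values (0.0711). Photoreceptor markers were high in the same 3 libraries, and within WT 0 h the library with the most of them, replicate 2, also had the most Adamts3. That library had the highest marker sum of all 12 (932 FPKM) but less Adamts3 (2.18 FPKM) than any β8ITG-cKO 24 h library. Within β8ITG-cKO 0 h both had the same order of libraries. In β8ITG-cKO 24 h they did not, since replicate 2 had the lowest sum of those markers (836, 744 and 882 FPKM) and the most Adamts3 (3.78, 4.80 and 3.89 FPKM). Within WT 24 h replicate 1 was lowest in both, and replicates 2 and 3, with 124 and 130.1 FPKM of those markers, had 2.15 and 1.22 FPKM of Adamts3. Their part in the result was not tested.

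Adamts2, the founding procollagen N-proteinase, had 0.48, 0.48 and 0.59 FPKM in WT 0 h, 0.85, 0.67 and 0.42 in WT 24 h, 0.56, 0.40 and 0.56 in β8ITG-cKO 0 h and 1.01, 0.94 and 1.68 in β8ITG-cKO 24 h. It rose in β8ITG-cKO by 0.54 ± 0.16 (adjusted p = 0.0293). The call was lost with rescaled libraries (adjusted p = 0.0662), with no filter on low values (0.0606) and without β8ITG-cKO 0 h replicate 1 (0.0564), β8ITG-cKO 0 h replicate 2 (0.0873), β8ITG-cKO 0 h replicate 3 (0.0633) or β8ITG-cKO 24 h replicate 3 (0.0711). The difference in WT was 0.11 ± 0.18 (adjusted p = 0.666).

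**Figure D5:**
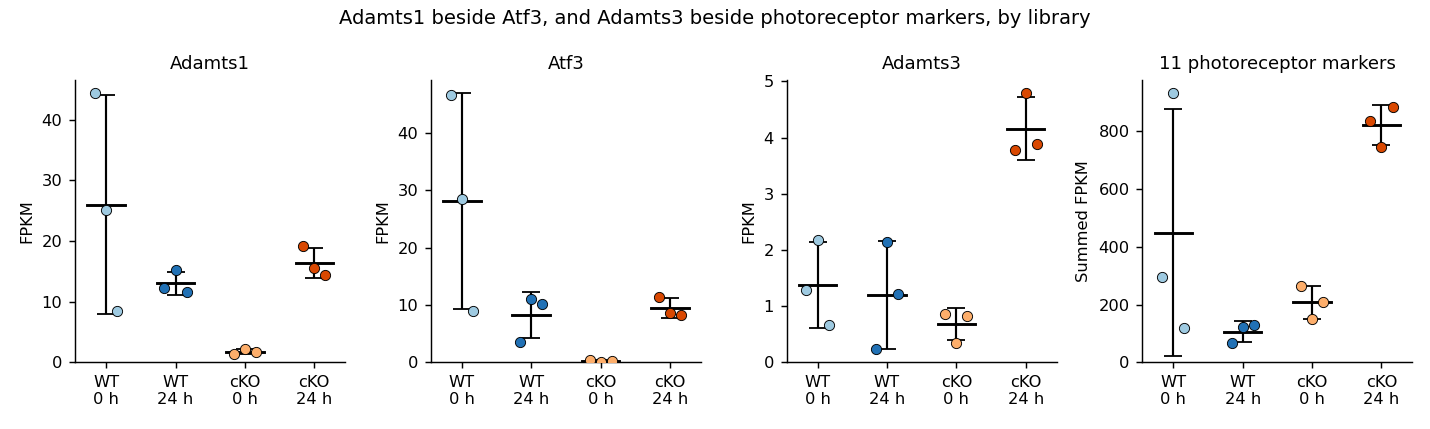
FPKM of Adamts1, Atf3 and Adamts3 and summed FPKM of the 11 photoreceptor markers (vertical axes, linear) in each library. Points are libraries, and bars are the mean ± SD of 3. Adamts1 and Atf3 are both lowest in β8ITG-cKO 0 h and widely spread in WT 0 h, and Adamts3 and the photoreceptor sum are both high in all 3 β8ITG-cKO 24 h libraries. WT 0 h replicate 2 has the highest photoreceptor sum and less Adamts3 than those libraries.

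Adamts18 had the highest group mean of the ADAMTS genes at 0 h in both genotypes, below Adamts1 in WT 0 h replicate 1 alone, and fell in both genotypes. This gene (chr8:113697123-113849343) is required for normal eye development. It had 40.1, 33.7 and 46.5 FPKM in WT 0 h, 17.8, 11.2 and 14.2 in WT 24 h, 45.3, 64.8 and 55.4 in β8ITG-cKO 0 h and 12.4, 15.0 and 17.3 in β8ITG-cKO 24 h. Every 24 h library was below every 0 h library, and the genotypes overlapped at 24 h. It fell by 1.43 ± 0.20 in WT (adjusted p = 0.00234) and by 1.82 ± 0.16 in β8ITG-cKO (adjusted p = 0.000117), and the test of the difference gave -0.39 ± 0.27 (adjusted p = 0.417). Lens fiber markers fell as well, 8 of the 9 tested in WT and 9 of 9 in β8ITG-cKO, beside 8.81% and 10.7% of all genes tested that fell, and their part in the fall of Adamts18 was not tested.

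Adamts10 and Adamts6, related enzymes that act on fibrillin microfibrils, fell with it. Adamts10, mutated in a form of Weill-Marchesani syndrome with displaced lenses, had 4.94, 6.19 and 5.45 FPKM in WT 0 h, 2.44, 2.54 and 2.96 in WT 24 h, 5.15, 5.48 and 5.45 in β8ITG-cKO 0 h and 3.27, 2.63 and 4.18 in β8ITG-cKO 24 h. The times did not overlap. It fell by 0.84 ± 0.15 in WT (adjusted p = 0.00656) and by 0.56 ± 0.14 in β8ITG-cKO (adjusted p = 0.0153), where the adjusted p was 0.0501 without β8ITG-cKO 0 h replicate 3.

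Adamts6 had 3.93, 2.48 and 4.49 FPKM in WT 0 h, 1.11, 1.16 and 0.92 in WT 24 h, 3.70, 5.54 and 4.49 in β8ITG-cKO 0 h and 1.39, 1.37 and 1.05 in β8ITG-cKO 24 h. All 6 libraries of 24 h were below all 6 of 0 h. It fell by 1.14 ± 0.21 in WT (adjusted p = 0.00641) and by 1.29 ± 0.15 in β8ITG-cKO (adjusted p = 0.000448).

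Adamts17, mutated in another form of Weill-Marchesani syndrome, had 0.84, 0.31 and 1.05 FPKM in WT 0 h, 0.10, 0.10 and 0.19 in WT 24 h, 0.84, 0.97 and 1.15 in β8ITG-cKO 0 h and 0.34, 0.32 and 0.22 in β8ITG-cKO 24 h. Within each genotype every 24 h library was below every 0 h library. It fell in β8ITG-cKO by 0.62 ± 0.13 (adjusted p = 0.00741). In WT its mean was under 0.5 FPKM, and its difference of -0.60 there passed in 1 fit over all 12 libraries (adjusted p = 0.0161) and did not with no filter on low values (0.0894).

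Adamts7, which cuts cartilage oligomeric matrix protein, had 0.01, 0.20 and 0.08 FPKM in WT 0 h, 1.06, 1.15 and 1.11 in WT 24 h, 0, 0.09 and 0.12 in β8ITG-cKO 0 h and 1.05, 0.55 and 0.44 in β8ITG-cKO 24 h. Every 24 h library was above every 0 h library, and at 24 h each β8ITG-cKO library was below each WT library. It rose in WT by 0.94 ± 0.17 (adjusted p = 0.00641), where it reached 0.5 FPKM at 24 h only. In β8ITG-cKO its mean was under 0.5 FPKM, and its difference there passed with no filter on low values (0.64, adjusted p = 0.0251). Adamts12, with a similar substrate, was at or below 0.16 FPKM. Adamts13, which cuts von Willebrand factor, lay between 0.53 and 1.14 FPKM, and Adamts16 and Adamts19 were at or below 0.53 FPKM.

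Between the genotypes at 24 h PCS, none of the 46 genes passed the test in limma, beside 6.29% of all genes tested. An unadjusted p under 0.05 was found for 6 of the 26 that were tested, beside 20.4% of all genes tested, and the groups did not overlap for 5 of these 26, beside 26.5% of all genes tested. Of these 5, Mmp19 and Adamts7 were lower and Adamts3, Mmp15 and Adamts2 higher in β8ITG-cKO. Adamts3 was nearest to the threshold (1.33 ± 0.32, adjusted p = 0.0566), and it passed without WT 24 h replicate 1 (adjusted p = 0.0489) or WT 24 h replicate 2 (0.0304). It also passed in 1 fit over all 12 libraries (0.0217).

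At 0 h, 2 of the 46 genes passed between the genotypes, Timp1 higher and Adamts1 lower, beside 6.94% of all genes tested, 4.18% higher and 2.75% lower. Groups that did not overlap were found for 9 of the 21 that were tested, beside 30.8% of all genes tested. The interaction of genotype and time passed for 3 genes, Timp1, Adamts1 and Adamts3, beside 9.39% of all genes tested. In the first 2 of these the genotypes differed at 0 h and not past the test at 24 h, and comparisons that share the same libraries are not independent of one another.

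The 25 genes not given in full had a highest group mean of 2.79 FPKM, for Mmp2 in WT 0 h. Of these, 3 were listed at 0 in all 12 libraries, 12 more had all 4 group means under 0.5 FPKM, and 10 reached 0.5 FPKM in a group.

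Genes that act on or beside these proteases were followed as 5 further lists. Their counts stand beside 29.7% of all genes tested that passed in WT and 46.1% in β8ITG-cKO. Of 15 regulators and activators of MMPs, 12 were tested in WT and 11 in β8ITG-cKO, and 4 rose and 6 fell in WT, and 4 rose and 3 fell in β8ITG-cKO. Furin, which activates membrane-type MMPs and ADAMTS proenzymes, went from 20.0, 19.9 and 16.8 FPKM to 51.0, 53.9 and 42.7 FPKM in WT (1.33 ± 0.15, adjusted p = 0.00102) and rose by 1.06 ± 0.11 in β8ITG-cKO (adjusted p = 0.000213). Cd44, a hyaluronan receptor that docks MMPs at the cell surface, rose by 1.31 ± 0.15 (adjusted p = 0.00117) and 1.61 ± 0.15 (adjusted p = 0.000139), and was lower in β8ITG-cKO at 0 h by 0.75 ± 0.15 on the log2 scale (adjusted p = 0.0294). A2m, a protease trap of body fluids, rose by 1.15 ± 0.30 (adjusted p = 0.0254) and 1.56 ± 0.24 (adjusted p = 0.0015).

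Bsg, or basigin, known as an inducer of MMPs, fell in both genotypes, from 499 to 541 FPKM to 281 to 350 FPKM in WT (adjusted p = 0.0185) and from 561 to 641 FPKM to 366 to 434 FPKM in β8ITG-cKO (adjusted p = 0.00583). Spock1, a testican of the matrix, fell in WT by 0.66 ± 0.17 (adjusted p = 0.0247). Spock2, another testican, had 8.37, 12.3 and 5.72 FPKM in WT 0 h and 1.44, 1 and 2.31 in WT 24 h, against 4.24, 16.5 and 12.4 in β8ITG-cKO 0 h and 7.60, 10.3 and 11.6 in β8ITG-cKO 24 h. It fell in WT by 1.90 ± 0.29 (adjusted p = 0.0033) and was higher in β8ITG-cKO than in WT at 24 h by 2.08 ± 0.23 (adjusted p = 0.00293). Of the 15 genes 12 were tested between the genotypes at 24 h, and Spock2 alone passed, beside 6.29% of all genes tested. Photoreceptor markers were also higher in the β8ITG-cKO 24 h libraries than in the WT 24 h ones. In β8ITG-cKO 0 h these markers summed to 264, 149.5 and 211 FPKM, in the reverse order of libraries to Spock2. Their part was not tested.

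Of 6 ADAMTS-like genes, which encode relatives without the protease domain, 4 and 5 were tested, and 3 rose in WT, and 2 rose and 1 fell in β8ITG-cKO, 1 of these let in by 1 group only. Adamtsl4, mutated in inherited displacement of the lens, went from 12.8, 9.49 and 13.4 FPKM to 49.7, 36.2 and 44.3 FPKM in WT (1.78 ± 0.18, adjusted p = 0.000743) and from 14.5, 18.6 and 17.8 FPKM to 41.3, 45.2 and 39.9 FPKM in β8ITG-cKO (1.27 ± 0.11, adjusted p = 0.000125). Of 9 ADAM genes, the membrane-bound sheddases, 7 and 6 were tested, and 5 rose in WT and 3 in β8ITG-cKO, of which 3 and 1 were let in by their 24 h values alone. Adam12 went from 0.34 to 0.43 FPKM to 11.9 to 22.0 FPKM in WT (3.71 ± 0.23, adjusted p = 0.000101) and from 0.36 to 1.17 FPKM to 11.5 to 13.8 FPKM in β8ITG-cKO (3 ± 0.18, adjusted p = 2.37e-05). Adam9 rose in WT by 0.49 ± 0.12 (adjusted p = 0.0219).

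Of 7 astacin proteases and procollagen C-proteinase enhancers, 4 were tested, and 3 rose and 1 fell in each genotype, with 1 of them in each let in by 1 group only. Bmp1, which removes the carboxy-terminal propeptide of procollagen, had 24.5, 21.7 and 28.4 FPKM in WT 0 h, 125, 98.4 and 106 in WT 24 h, 48.3, 45.6 and 44.6 in β8ITG-cKO 0 h and 89.2, 88.6 and 92.3 in β8ITG-cKO 24 h. It was higher in β8ITG-cKO at 0 h (0.88 ± 0.12, adjusted p = 0.00914), rose by 2.1 ± 0.16 in WT (adjusted p = 0.000238) and by 0.95 ± 0.08 in β8ITG-cKO (adjusted p = 0.000115), and these changes differed by -1.15 ± 0.17 (adjusted p = 0.00537). Pcolce, which enhances Bmp1, fell by 1.21 ± 0.18 in WT (adjusted p = 0.00327) and by 1.38 ± 0.24 in β8ITG-cKO (adjusted p = 0.00261).

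Of 10 ADAMTS substrates, 6 and 5 were tested, and 1 rose and 1 fell in WT, 1 of these let in by 1 group only, and 1 rose in β8ITG-cKO. Thbs1, thrombospondin-1, went from 4.94, 3.13 and 5.10 FPKM to 37.8, 43.5 and 14.7 FPKM in WT (2.5 ± 0.38, adjusted p = 0.00337). In β8ITG-cKO it went from 1.5, 1.92 and 1.53 FPKM to 8.81, 12.4 and 23.6 FPKM (2.48 ± 0.30, adjusted p = 0.00048). It was lower in β8ITG-cKO at 0 h by 1.01 ± 0.18 on the log2 scale (adjusted p = 0.0218). At 24 h the difference between the genotypes was -1.03 ± 0.46 (adjusted p = 0.269), and the interaction gave -0.02 ± 0.54 (adjusted p = 0.989). Versican (Vcan), the main proteoglycan substrate, lay between 9.64 and 33.2 FPKM with overlapping groups, and fibrillin-1 (Fbn1) between 23.1 and 81.1 FPKM, and neither passed in any of the 5 comparisons. Aggrecan (Acan) was at or below 0.04 FPKM in all 12 libraries.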

How the data were processed

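RNA of 12 libraries, 3 for each of 4 conditions, was analysed from the FPKM per gene and library that the authors deposited in 4 tables, 1 for each pair of conditions; a library had the same values in each table that held it. Per the labels, stranded total RNA libraries were made from low input, and the submitters' processing notes name FastQC, cutadapt 1.12, TopHat2 2.1.0, Cuffdiff 2.2.1 and the builds mm10 and GRCm38.p5. Whether counting used strand is not given in the sources used here. A total of 16 columns of group values and means with no library of their own, and the authors' fold changes and p-values, were not used. FPKM carry no read counts, so depth is unknown and no counting interval is given. Summed FPKM were 446531 to 740140 per library, with 36.0% to 49.6% in the 10 highest genes.

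The test was limma 3.58.1 (R 4.3.3, limma-trend) on log2(FPKM + 1), a scale that understates changes of low genes. It was run on 2 conditions at a time, left out genes averaging under 0.5 FPKM in them, and used Benjamini-Hochberg adjustment over all genes tested. The interaction came from 1 fit over 12 libraries. Past the test means an adjusted p of at most 0.05. The fit was tested on simulated data. Positions and promoters are RefSeq GRCm38.p6 and all 46 positions overlapped the position in the files. Python 3.11.15, pandas 2.3.3, numpy 2.4.6 and matplotlib 3.10.9 were used. Replicates shared at most 0.01% identical values among genes at 2 FPKM or more in 1 of the pair, so none was a copy of another. This check cannot show that the pools are independent. The study describes them as biological replicates, so each was counted as its own sample. The p-values measure the spread between these pools.

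The genes, lists and markers were chosen with earlier results of these data known. A photoreceptor marker of the list is not reported here and was left out of its sums and counts. Values are given in full for genes with a group mean of at least 5 FPKM or past a test, and of the other lists for genes past a test with a group mean of at least 10 FPKM. Promoters were shown for genes among the 5 largest rises in WT, for the chromosome 9 cluster and for Adamts1. Alternatives were a pseudocount of 0.1, no filter, a filter of 2 FPKM, rescaling, 1 fit over all libraries, the replicate number as a block, the study's size criteria (fold over 2, difference over 2 FPKM, 2 FPKM in 1 group) and each library left out.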

Additional observations from a re-analysis of the deposited data

Results flagged for a closer look

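The change from 0 h to 24 h PCS differed between the genotypes for 3 of the 46 genes, by the test of the interaction in limma. For Timp1 the change in β8ITG-cKO minus that in WT was -2.83 on the log2 scale (adjusted p = 0.00143), with every 24 h value above every 0 h value within each genotype and 0 h levels 7.18-fold apart. For Adamts1 it was 3.33 (adjusted p = 0.00815), with a rise in β8ITG-cKO and a WT difference that did not pass. For Adamts3 it was 1.79 (adjusted p = 0.0299), which missed the threshold without any of 7 single libraries. Values of some markers and other genes are given beside these results above, and their part was not tested.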

How the results depend on the processing

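No member call changed sign under any alternative run. Of the 46 genes, 13 passed over time in WT and 11 to 14 with 1 library left out. In β8ITG-cKO 16 passed, 14 to 17 with 1 library left out, and 10 with the study's size criteria. Between the genotypes at 24 h 0 passed, 1 (Mmp24) with no filter on low values, 1 (Adamts3) in 1 fit over all 12 libraries, and 0 to 1 with 1 library left out. At 0 h 2 passed, 1 with no filter, 4 with rescaled libraries (Timp3 and Mmp14 added), and 1 to 2 with 1 library left out. The interaction passed for 3 genes, and for 2 to 5 with 1 library left out.

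With the replicate number as a block, the counts were 12, 15, 1 (Adamts3, adjusted p = 0.0495), 2 and 3. The Mmp15 fall in WT (adjusted p = 0.0773) and the Mmp19 rise in β8ITG-cKO (0.0783) missed the threshold. Same-numbered libraries correlated at -0.249 to 0.096 in their deviations, and the main fits did not treat the numbers as pairs. With so few libraries a group, this check cannot exclude pairing.

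Over all genes, 966 passed between the genotypes at 24 h, 574 with a filter of 2 FPKM, 1538 in 1 fit and 562 with the size criteria. At 0 h 1020 passed, 254 with no filter, 269 with the block and 371 with the size criteria. The interaction passed for 1433 genes, 930 with a filter of 2 FPKM. The size criteria left 2159 of 4500 genes in WT and 2294 of 7030 in β8ITG-cKO. With 1 library left out the counts were 2512 (without WT 0 h replicate 1) to 5087, 5639 to 6300, 439 (without β8ITG-cKO 24 h replicate 2) to 1108, 136 (without β8ITG-cKO 0 h replicate 3) to 756, and 688 (without β8ITG-cKO 0 h replicate 2) to 1921. Rescaling took the higher share of passing genes from 89.8% to 77.3% between the genotypes at 24 h and from 72.8% to 62.8% in the interaction.

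Depth is unknown, since FPKM hold no counts, so values near 0 have no stated precision. With 3 pools a group, genotype and strain background cannot be told apart, and the part of other cells in the pools was not tested.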
